A study of Mus musculus with 6 samples.

Results

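Basic helix-loop-helix (bHLH) transcription factors of the cortical excitatory lineage were followed here as 9 genes chosen by name: Neurog1, Neurog2, Neurod4, Nhlh1, Neurod1, Nhlh2, Neurod6, Neurod2 and Bhlhe22. They are 9 of the 54146 genes in the count tables, each matched by its symbol to a single Ensembl gene. The samples were GFP-positive cells sorted from the mouse cortex at stage E15.5 (E for embryonic day), 24 hours after in utero electroporation at E14.5. In the Mir group (3 libraries) wild-type embryos had received a plasmid that makes a precursor of the microRNA miR-3607 from the U6 promoter, at 1 µg/µl, and in the Scr group (3 libraries) the same vector with a scrambled hairpin. All embryos of both groups also carried a GFP plasmid driven by the CAG promoter, at 0.7 µg/µl. Each library pooled the cells of 2 embryos, and the labels give the strain as ICR in one place and as C57BL/6 in another. The level of the mature microRNA in the sorted cells was not analysed here.

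In the embryonic cortex, proneural bHLH factors start neuronal differentiation in dividing progenitors, and related factors then take over in sequence as the cell leaves the ventricle and matures. Each binds DNA as a dimer with a ubiquitous E protein, at short motifs called E-boxes. Id proteins block this by capturing E proteins, and Hes proteins, the output of Notch signalling, repress proneural genes. Neurog2 with Neurog1 marks progenitors committed to excitatory neurons, Neurod4, Nhlh1 and Neurod1 appear in intermediate progenitors and newborn neurons, and Neurod6, Neurod2 and Bhlhe22 persist in neurons. The genes are given below in that order, with Nhlh2 placed after Neurod1. The stages do not rank the genes inside them, so the order within a stage is a choice. The whole order was set from textbook knowledge and not from these libraries.

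The sequences that bear on the comparison are the strand that the hairpin was built to deliver, the nearest match to it among the 9 genes, and the start regions of 4 members. The strand after the loop of the hairpin oligonucleotide is given without its closing run of T, with the seed (bases 2 to 8) in capitals.
Hairpin strand: gCATGTGAtgaagcaaatcag
A match to the whole seed is TCACATG, and CACATGA is the other 7-base form. Neither was found in the 3′ UTR of any of the 9 members, while 2208 of 12721 tested genes (17.4%) held at least 1 of them. The shorter match CACATG occurred once, in Neurod4, and 35.4% of the searched genes hold it. Its surroundings are shown with the match in capitals, starting at base 236 of that UTR.
Neurod4 site: atggtttgaggcCACATGgtaatagaacag
Promoter windows of 300 bases, 250 before to 50 after an annotated start, were read from RefSeq on GRCm38.p6 and were found for 8 members. E-boxes (CANNTG, which reads the same on both strands) are in capitals. Neurog1 (chr13:56252131-56252430, minus strand), Neurog2 (chr3:127632886-127633185, plus strand), Neurod1 (chr2:79456587-79456886, minus strand) and Neurod2 (chr11:98329596-98329895, minus strand) are shown because the first pair had the highest fold changes among the 9, and the second pair lies downstream of them in the lineage.
Neurog1 promoter: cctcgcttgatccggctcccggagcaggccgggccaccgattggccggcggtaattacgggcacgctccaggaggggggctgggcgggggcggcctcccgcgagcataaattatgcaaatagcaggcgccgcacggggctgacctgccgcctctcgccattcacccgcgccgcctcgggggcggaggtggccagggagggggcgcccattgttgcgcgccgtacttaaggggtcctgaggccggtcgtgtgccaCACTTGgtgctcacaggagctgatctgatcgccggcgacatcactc
Neurog2 promoter: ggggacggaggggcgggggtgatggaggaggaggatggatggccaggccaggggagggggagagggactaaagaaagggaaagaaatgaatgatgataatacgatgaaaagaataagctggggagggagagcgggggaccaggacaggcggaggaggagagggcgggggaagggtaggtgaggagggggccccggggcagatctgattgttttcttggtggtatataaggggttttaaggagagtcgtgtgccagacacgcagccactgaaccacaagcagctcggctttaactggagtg
Neurod1 promoter: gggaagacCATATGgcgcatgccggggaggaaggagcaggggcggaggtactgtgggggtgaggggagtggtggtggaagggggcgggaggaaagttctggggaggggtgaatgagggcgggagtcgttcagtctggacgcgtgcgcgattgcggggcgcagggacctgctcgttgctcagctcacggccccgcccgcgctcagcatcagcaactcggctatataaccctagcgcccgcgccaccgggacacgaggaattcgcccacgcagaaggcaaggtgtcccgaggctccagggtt
Neurod2 promoter: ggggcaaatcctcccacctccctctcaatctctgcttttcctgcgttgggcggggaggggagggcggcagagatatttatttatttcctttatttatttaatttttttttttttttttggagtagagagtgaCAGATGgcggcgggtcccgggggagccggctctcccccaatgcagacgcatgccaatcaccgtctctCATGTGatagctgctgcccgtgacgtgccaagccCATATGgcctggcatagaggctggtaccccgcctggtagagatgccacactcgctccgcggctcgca
The Neurog2 window held 0 E-boxes, those of Neurog1 and Neurod1 held 1 each, and that of Neurod2 held 3. Over the 9 windows of the 8 members (Neurod4 has 2 starts), 7 held at least 1 E-box, against 72.3% of all 32851 windows. The forms CAGATG (on either strand) and CATATG, which neurogenin and NeuroD proteins are known to favour, were in 4 of the 9 windows, those of Nhlh1, Neurod1, Nhlh2 and Neurod2, against 20.3% of all windows. These are letter matches and were not measured as binding sites.

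Counts in genes were 14671557 to 15847663 per library in Mir and 12724511 to 16684038 in Scr. The label calls the sorted cells cortical progenitors, and markers of progenitors and of neurons were both present. Summed CPM (counts brought to one library size with trimmed mean of M values factors) over 12 radial glia markers was 1899 to 2883 in Mir and 1552 to 2244 in Scr, and over 12 excitatory neuron markers 2542 to 2770.4 in Mir and 2917 to 4279.9 in Scr. In these bulk libraries, fewer cells of a type and less RNA per cell cannot be told apart. Markers of other cells also differed in their means. All 13 inhibitory neuron markers had lower means in Mir, with summed CPM of 204 to 502 in Mir and 395 to 1468 in Scr. Those ranges overlapped, and Scr replicate 2 was the highest library. All 8 endothelial and mural markers had lower means in Mir, with summed CPM of 2.04 to 41.5 in Mir and 20.0 to 230.3 in Scr, and Cldn5, Pecam1 and Cdh5 were at 0 in Mir replicates 1 and 2. Over 5 meningeal fibroblast markers the sum was 0.954 to 201 CPM in Mir, highest in replicate 2, and 9.94 to 19.8 CPM in Scr. All 8 microglia and blood markers had lower means in Mir, with sums of 12.1 to 347 CPM in Mir and 171 to 545 CPM in Scr. The 3 tested markers of Cajal-Retzius cells also had lower means in Mir. Over all 6 listed for those cells, the sum was 5.24 to 12.1 CPM in Mir and 12.7 to 19.4 CPM in Scr. Over 4 oligodendrocyte precursor markers it was 10.7 to 21.1 CPM in Mir and 5.22 to 31.6 CPM in Scr. Over 7 intermediate progenitor markers, all with higher means in Mir, the sum was 2079 to 2979.5 CPM in Mir and 1391 to 2141 CPM in Scr. The part of these cells in the results below was not tested.

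All 9 members passed the filter on low counts, with 114 to 305 counts per library for Neurog1, the sparsest with Nhlh2, and 27658 to 37768 for Neurod6. None of the 9 passed edgeR's quasi-likelihood test at a Benjamini-Hochberg adjusted p under 0.05, against 1 of 16897 genes tested (0.00592%). DESeq2 also called 0 of the 9, against 4.37% of the genes to which it gave an adjusted p. At an unadjusted p under 0.05, edgeR listed 2 of the 9, Neurog1 and Neurog2, both higher in Mir, and no member lower, against 6.57% of all genes higher and 7.93% lower. Both listings depended on single libraries: 1 member, Neurog1, was listed when Mir replicate 1 was dropped, Neurog2 and Bhlhe22 when Mir replicate 3 was dropped, 4 (Neurog1, Neurog2, Neurod4 and Bhlhe22) when Scr replicate 1 was dropped, and 0 when Mir replicate 2, Scr replicate 2 or Scr replicate 3 was dropped. Groups that did not overlap were seen for 1 of the 9, Neurog1, which was higher in Mir, against 20.0% of all genes in either direction and 9.72% in that direction. The median log2 fold change of the 9 was 0.08, with 5 higher and 4 lower means, and over all genes tested it was -0.01, with 48.8% higher. Neurog1, Neurog2, Neurod4 and Neurod2 had positive and Neurod6 and Bhlhe22 negative fold changes under every alternative, while Nhlh1, Neurod1 and Nhlh2 changed sign under at least 1.

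**Figure D1:**
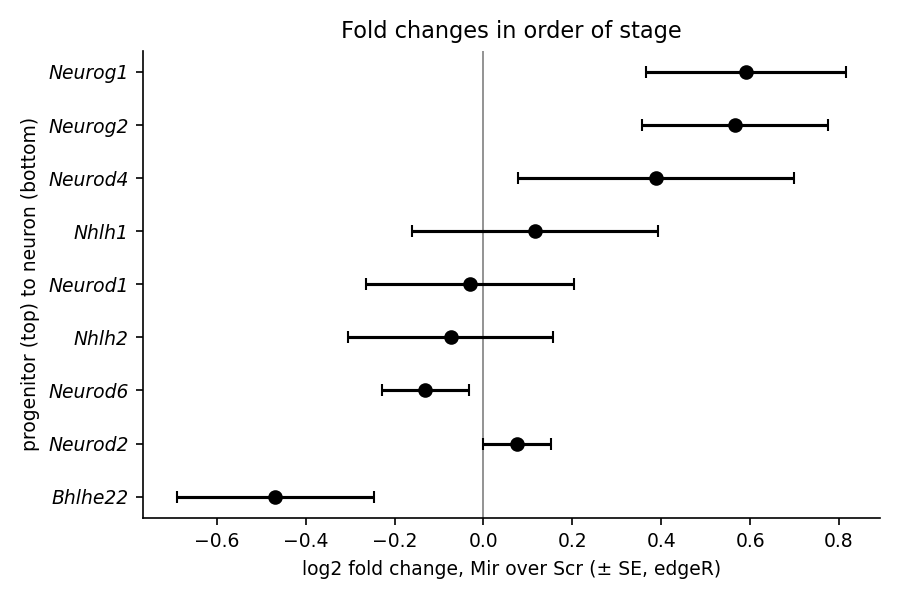
Log2 fold change of each member, Mir over Scr, from edgeR (points) with its standard error (bars), with genes from progenitor at the top to neuron at the bottom and the line at no change. Neurog1 and Neurog2 sit highest at 0.59 and 0.57, Bhlhe22 lowest at -0.47, and none passed the adjusted threshold.

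The neurogenin genes had the highest fold changes of the 9, Mir over Scr. In what follows, the values of a group are given in the order of its replicates 1, 2 and 3. Neurog2, the main proneural factor of the dorsal cortex (ENSMUSG00000027967, chromosome 3, 127633135 to 127635631, GRCm38), was at 627, 761 and 512 CPM in the Mir libraries, against 555, 333 and 395 CPM in the Scr libraries. Mir replicate 2 was the highest library and Scr replicate 2 the lowest, and the groups overlapped because Scr replicate 1 lay above Mir replicate 3. The means were 634 ± 124 CPM in Mir and 428 ± 115 CPM in Scr (SD, n = 3 each), a log2 fold change of 0.57 ± 0.21 (SE). The edgeR adjusted p was 0.295, and it was 0.0933 with DESeq2, the smallest over the 14 alternatives. Leaving out 1 library at a time moved the fold change between 0.41 and 0.79.

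Neurog1, the closest relative of Neurog2 (ENSMUSG00000048904, chromosome 13, 56250478 to 56252163), was at 13.9, 19.5 and 16.2 CPM in the Mir libraries, against 13.3, 8.25 and 11.4 CPM in the Scr libraries. All 3 Mir libraries lay above all 3 Scr libraries, with Mir replicate 1 only just above Scr replicate 1. The log2 fold change was 0.59 ± 0.23 (edgeR adjusted p = 0.307), close to that of Neurog2. The ratio of Neurog1 to Neurog2 counts was 0.0222, 0.0256 and 0.0317 in the Mir libraries, against 0.0240, 0.0248 and 0.0288 in the Scr libraries. The Scr range lay inside the Mir range, so the level of one neurogenin relative to the other did not separate the groups.

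Next in order are the genes of the passage from progenitor to newborn neuron. Neurod4, a factor downstream of the neurogenins (ENSMUSG00000048015, chromosome 10, 130268152 to 130280240), was at 59.1, 53.1 and 36.0 CPM in the Mir libraries, against 53.9, 22.8 and 36.6 CPM in the Scr libraries. The groups overlapped, and Mir replicate 3 lay below Scr replicates 1 and 3. The log2 fold change was 0.39 ± 0.31 (edgeR adjusted p = 0.599), and it was 0.13 without Scr replicate 2 and 0.72 without Scr replicate 1. Nhlh1, a bHLH factor expressed briefly as neurons are born (ENSMUSG00000051251, chromosome 1, 172052292 to 172057573), was at 48.5, 43.9 and 33.3 CPM in the Mir libraries, against 54.5, 25.0 and 36.7 CPM in the Scr libraries. The highest and the lowest library were both Scr libraries, so that the spread within Scr was wider than the difference between the means. Its log2 fold change was 0.12 ± 0.28 (edgeR adjusted p = 0.882), and it was -0.12 without Scr replicate 2.

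Neurod1, which drives intermediate progenitors and newborn neurons towards differentiation (ENSMUSG00000034701, chromosome 2, 79452521 to 79456751), was at 325, 345 and 217 CPM in the Mir libraries, against 399.8, 235 and 272 CPM in the Scr libraries. Its highest library was Scr replicate 1 and its lowest Mir replicate 3, and the means, 296 ± 69.0 CPM in Mir and 302 ± 86.5 CPM in Scr (SD, n = 3 each), differed by far less than the spread within either group. The log2 fold change was -0.03 ± 0.23 (edgeR adjusted p = 0.965). The exons of Neurod1 share 154 bp with Gm26755, a noncoding RNA on the opposite strand, and 201 bp with Cerkl on the same strand. The library kit does not mark the strand, so reads from these stretches are uncertain. Gm26755 had 344 to 634 counts in a library, against 3197 to 5406 for Neurod1 itself. Nhlh2, the closest relative of Nhlh1 (ENSMUSG00000048540, chromosome 3, 102010076 to 102015492), was at 13.4, 21.9 and 14.7 CPM in the Mir libraries, against 20.6, 17.5 and 14.6 CPM in the Scr libraries. The groups were interleaved, with a log2 fold change of -0.07 ± 0.23 (edgeR adjusted p = 0.915).

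The neuronal members had fold changes near 0, apart from Bhlhe22. Neurod6, a marker of excitatory cortical neurons (ENSMUSG00000037984, chromosome 6, 55677822 to 55681263), was at 2271, 1924 and 1883 CPM in the Mir libraries, against 2378, 2003 and 2274 CPM in the Scr libraries. The log2 fold change was -0.13 ± 0.10 (edgeR adjusted p = 0.574), and Mir replicate 1 lay above Scr replicate 2. Neurod2, which acts beside Neurod6 in excitatory neurons (ENSMUSG00000038255, chromosome 11, 98325415 to 98329648), was at 517, 567 and 571 CPM in the Mir libraries, against 509, 551 and 510.4 CPM in the Scr libraries. It was the steadiest of the 9, and its log2 fold change was 0.08 ± 0.08 (edgeR adjusted p = 0.689).

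Bhlhe22, a factor that gives postmitotic neurons their area identity (ENSMUSG00000025128, chromosome 3, 18054174 to 18057517), was at 45.9, 61.4 and 76.8 CPM in the Mir libraries, against 64.3, 101 and 89.4 CPM in the Scr libraries. Mir replicate 1 was the lowest library and Scr replicate 2 the highest, and Mir replicate 3 lay above Scr replicate 1. The means were 61.4 ± 15.48 CPM in Mir and 84.9 ± 18.8 CPM in Scr (SD, n = 3 each), a log2 fold change of -0.47 ± 0.22 (edgeR adjusted p = 0.385). Dropping Mir replicate 1 gave -0.29 and dropping Mir replicate 3 gave -0.68. Bhlhe22 is also expressed by neurons outside the excitatory lineage. Scr replicate 2, its highest library, had 1468 summed CPM of inhibitory neuron markers, against 395 to 541 in the other Scr libraries. The excitatory neuron markers were highest there too, at 4279.9 summed CPM, against 2917 and 3071 in Scr replicates 1 and 3. The part of either kind of neuron in the level of Bhlhe22 was not tested.

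**Figure D2:**
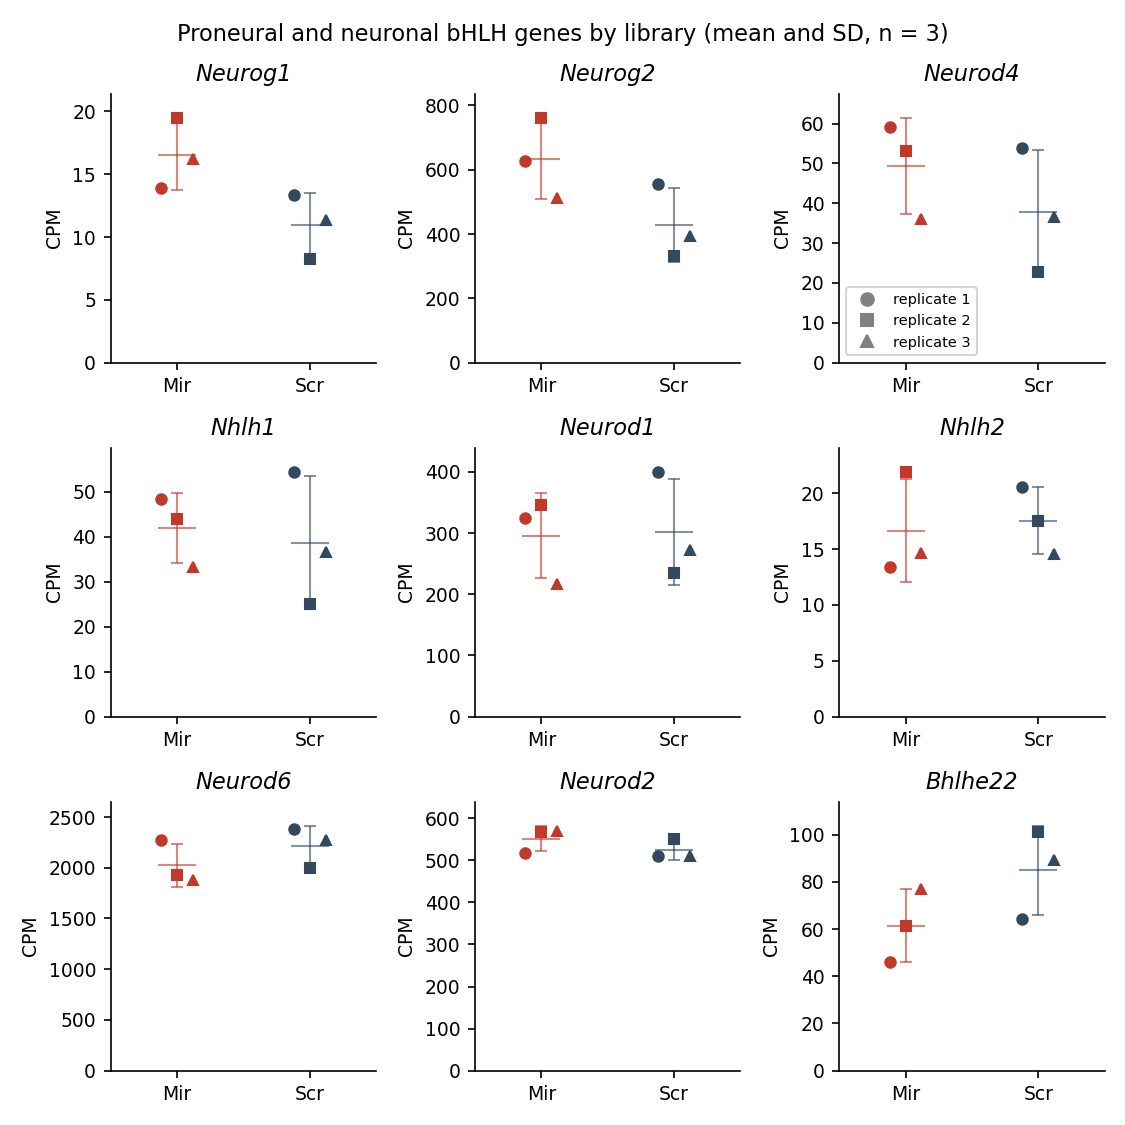
CPM of each member in every library, Mir left of Scr, with 1 symbol per replicate number, the mean as a long dash and the SD as bars. Neurog1 alone has all 3 Mir libraries above all 3 Scr libraries, and Scr replicate 1 is the highest library of all for Nhlh1, Neurod1 and Neurod6.

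Per kilobase of exon, so that genes can be compared, the 9 members stood in the same order of level in both groups. Levels in this paragraph are RPKM, the same scaled counts divided by exon length in kilobases. Neurod6 was highest at 942 ± 99.1 in Mir and 1032 ± 90.1 in Scr, followed by Neurog2 at 285 ± 55.9 in Mir and 192 ± 51.5 in Scr (SD, n = 3 each). Neurod2 came next at 176 ± 9.53 in Mir and 167 ± 7.49 in Scr, and Neurod1 after it at 108 ± 25.3 in Mir and 111 ± 31.7 in Scr (SD, n = 3 each). The remaining 5 were much lower, from 18.4 ± 4.63 for Bhlhe22 to 3.08 ± 0.847 for Nhlh2 in Mir, and from 25.4 ± 5.61 for Bhlhe22 to 3.24 ± 0.553 for Nhlh2 in Scr (SD, n = 3 each). Neurog2 and Neurod2 were apart in Mir, where the lowest Neurog2 library was at 230.0 and the highest Neurod2 library at 182, and they overlapped in Scr. Bhlhe22 overlapped with Nhlh1, Nhlh1 with Neurod4 and Neurod4 with Neurog1 in both groups, while Neurod1 lay apart from Bhlhe22. Within each group Nhlh2 was below Neurog1 in all libraries, and the top member exceeded the bottom one 306-fold in Mir and 318-fold in Scr.

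Ratios between members inside a library do not depend on how libraries are scaled. The ratio of Neurog2 to Neurod6 counts, which sets a progenitor gene against a neuronal one, was 0.276, 0.396 and 0.272 in the Mir libraries, against 0.234, 0.166 and 0.174 in the Scr libraries. All Mir libraries lay above all Scr libraries, and the log2 ratio differed by 0.71, with a mean of -1.69 ± 0.31 in Mir against -2.40 ± 0.27 in Scr (SD, n = 3 each). An exact two-sided permutation test gave p = 0.1, the smallest that 3 against 3 libraries allow, so that the design cannot place it under 0.05. Leaving out 1 library at a time gave differences of 0.54 to 0.87. Of all pairs of tested genes with a mean of at least 5 CPM, 21.9% likewise had no overlap between the groups, in either direction.

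**Figure D3:**
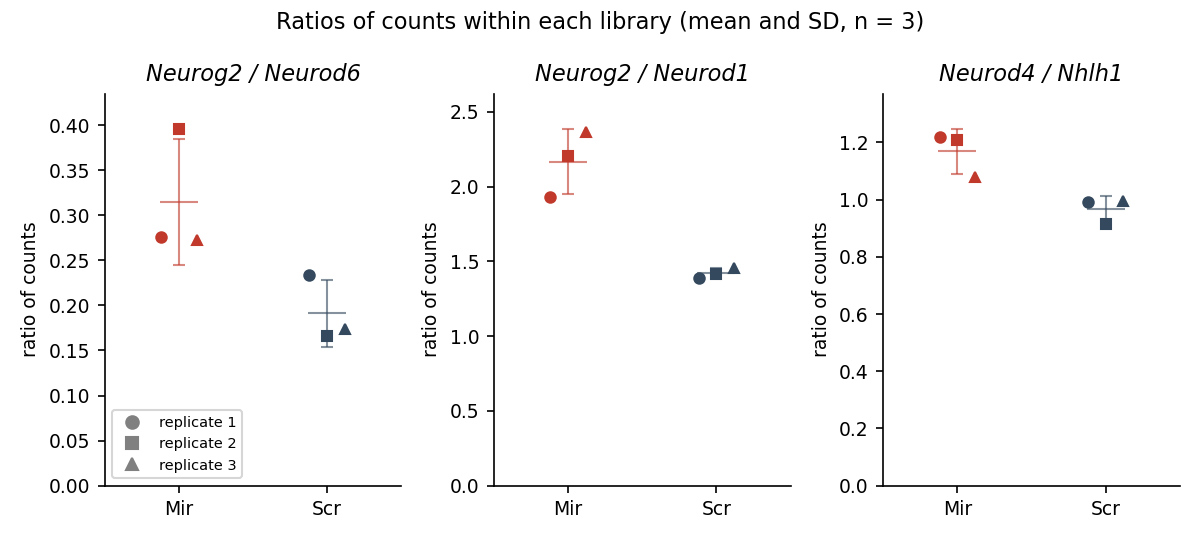
Ratio of counts within each library for 3 pairs of members, Mir left of Scr, with 1 symbol per replicate number, the mean as a long dash and the SD as bars. The Scr libraries lie close together for Neurog2 over Neurod1, at 1.39 to 1.45, and the Mir libraries lie above them at 1.93 to 2.36.

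The other ratios were looked at after the members' values had been seen. Of all 36 pairs, with the earlier gene over the later one, 10 had no overlap between the groups, and all 10 were higher in Mir. Those 10 are 27.8% of the pairs, against 21.9% of all pairs of tested genes with a mean of at least 5 CPM, and pairs that share a gene are not independent. Their direction depends on which gene is set first, and for genes of the same stage, and for Nhlh2, that order was a choice. The ratios come from the same counts as the fold changes, and a trend over stages was not tested. Among the 10 were the ratios of Neurog1 to Neurod1, Nhlh2, Neurod6, Neurod2 and Bhlhe22. The rest were those of Neurog2 to Neurod1, Nhlh2 and Neurod6, and of Neurod4 to Nhlh1 and Neurod1. The ratio of Neurog2 to Neurod1 was 1.93, 2.20 and 2.36 in the Mir libraries, against 1.39, 1.42 and 1.45 in the Scr libraries. In Scr the log2 ratio of this pair varied by an SD of 0.03, while Neurog2 itself ranged from 333 to 555 CPM there and Neurod1 from 235 to 399.8 CPM, so the pair moved together from pool to pool. The ratio of Neurod4 to Nhlh1 was 1.22, 1.21 and 1.08 in the Mir libraries, against 0.990, 0.913 and 0.997 in the Scr libraries. With Bhlhe22 below the line, Neurog1 and Neurog2 gave the widest differences, 1.08 and 1.06 on the log2 scale, but for Neurog2 the groups overlapped.

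**Figure D4:**
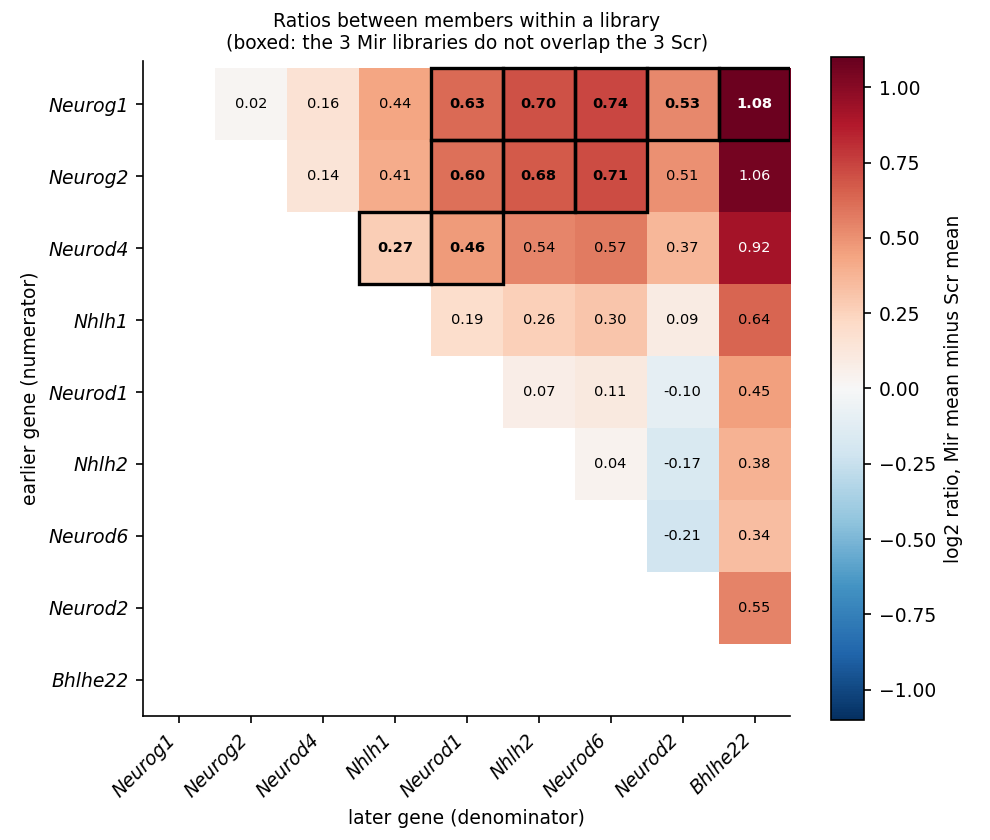
Difference between the Mir and Scr means of the log2 ratio of counts, for each pair with the earlier gene in the row and the later gene in the column. Boxed pairs, 10 of 36, are those whose groups do not overlap, and they lie in the rows of Neurog1, Neurog2 and Neurod4.

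Profiles across the 6 libraries were compared by the root mean square difference of log2 (CPM + 0.5) after centring each gene on its own mean, a distance that is also small between genes that vary little. It was smallest for Neurod4 with Nhlh1 (0.15), Neurog1 with Neurog2 (0.17) and Nhlh1 with Neurod1 (0.17). Neurod6 with Neurod2 came next (0.20), but that pair did not move together: its distance was above the SD of Neurod6 itself (0.14), and in each of the 6 libraries the genes lay on opposite sides of their Scr means. The most distant pair was Neurod4 with Bhlhe22 (0.82). Scr replicate 2 was the lowest library for Neurog1, Neurog2, Neurod4 and Nhlh1 and the highest for Bhlhe22. Outside the 9, and among 12038 tested genes with a mean of at least 5 CPM, the genes most like Neurog2 were Ift80 (an intraflagellar transport gene; 0.07), AI849053 (0.08) and Lhx2 (a LIM homeobox factor of cortical progenitors; 0.08). Those most like Neurod1 were Txnip (an inhibitor of thioredoxin; 0.04), Mipol1 (0.05) and Sema3a (a secreted guidance cue; 0.06). Those most like Neurod6 were Ranbp2 (a nuclear pore protein; 0.02), Rab18 (a small GTPase; 0.02) and Ep400 (a chromatin remodeller; 0.03). Likeness over 6 libraries is a description of these libraries, and the part of cell makeup in it was not tested.

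The proteins that these factors pair with, and those that hold them back, were read from lists written with the 9 members. Beside each list stands the number that DESeq2 called, which over all genes was the 4.37% given above. Of the 3 E protein genes, edgeR called 0 over all genes and DESeq2 1, Tcf3. Tcf3, whose products E12 and E47 are general partners of bHLH factors, was at 273, 285 and 297 CPM in the Mir libraries, against 238, 171 and 214 CPM in the Scr libraries. All Mir libraries lay above all Scr libraries, and the log2 fold change was 0.46 ± 0.13 (edgeR adjusted p = 0.225, DESeq2 adjusted p = 0.0373). Tcf4 had a log2 fold change of 0.23 ± 0.12 and Tcf12 one of -0.18 ± 0.10, with edgeR adjusted p-values of 0.427 and 0.457, and the groups overlapped for both. Mean levels of Tcf4 were 1761 ± 287 CPM in Mir and 1498 ± 104 CPM in Scr (SD, n = 3 each).

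Of the 4 Id genes, whose proteins capture E proteins, edgeR called 0 over all genes and DESeq2 called 2 as lower, Id2 and Id3. Means were lower in Mir for 3 of them, and the median log2 fold change was -0.37. Id3 was at 2.16, 7.41 and 7.06 CPM in the Mir libraries, against 13.1, 26.1 and 10.3 CPM in the Scr libraries, with no overlap, a log2 fold change of -1.57 ± 0.51 and adjusted p-values of 0.262 by edgeR and 0.0361 by DESeq2. For Id2 the Mir libraries were at 491, 508 and 521 CPM, against 629.9, 742 and 807 CPM in the Scr libraries, again with no overlap (edgeR adjusted p = 0.178, DESeq2 adjusted p = 0.00122). Id1 and Id4 overlapped between the groups, at log2 fold changes of 0.17 ± 0.19 and -0.23 ± 0.28. Id3 is also strongly expressed in blood vessels, and the 8 endothelial and mural markers had lower means in Mir as given above. Scr replicate 2 was the highest library for both. Scr replicate 3 had a lower sum of those markers than Mir replicate 3, 20.0 against 41.5 CPM, but more Id3. The part of vessels in the level of Id3 was not tested. The 6 Hes and Hey genes, repressors downstream of Notch except for Hes6, which promotes neurogenesis, were split between 4 higher and 2 lower means, around a median log2 fold change of 0.11, with 0 calls by edgeR. DESeq2 called 0 of the 4 to which it gave an adjusted p, and gave none to Hey2 and Heyl. Hes6, Hes5, Hey1, Hes1 and Hey2 were at 0.21 ± 0.13, 0.17 ± 0.17, 0.08 ± 0.15, 0.14 ± 0.34 and -0.22 ± 0.43, and Heyl, nearly absent at 0 to 2.44 CPM in Mir and 1.63 to 6.95 CPM in Scr, was at -1.80 ± 1.12.

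**Figure D5:**
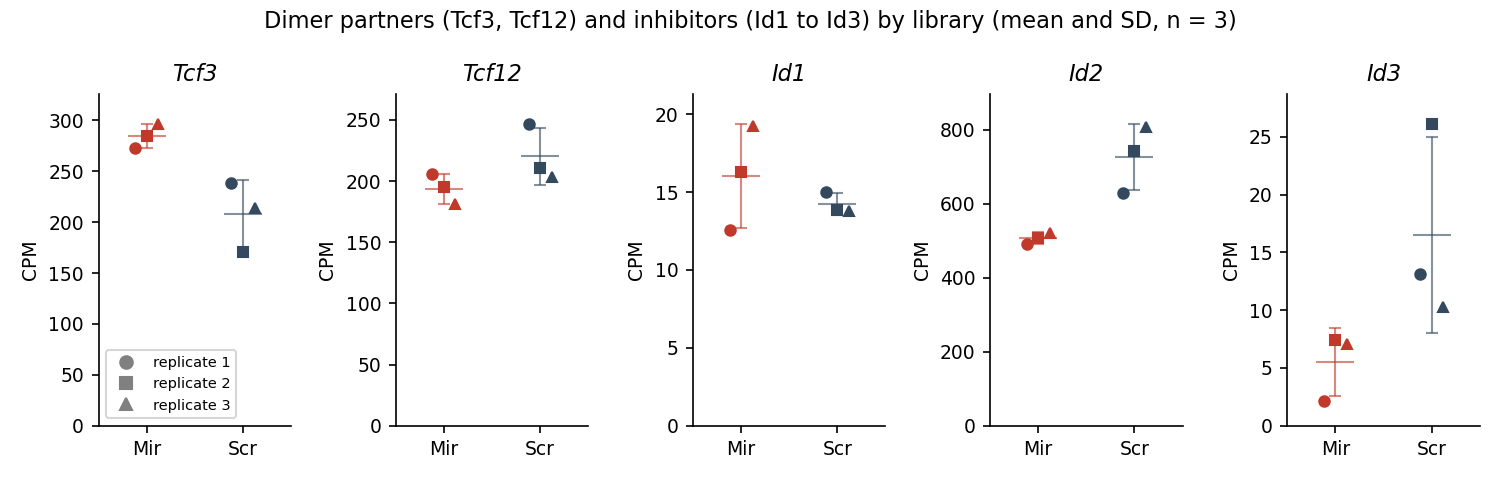
CPM in every library of the E protein genes Tcf3 and Tcf12 and of the inhibitor genes Id1, Id2 and Id3, Mir left of Scr, with 1 symbol per replicate number, the mean as a long dash and the SD as bars. The Mir libraries of Tcf3 lie above, and those of Id2 and Id3 below, all Scr libraries, and none of these genes passed the adjusted threshold of edgeR. Tcf4 and Id4 are not drawn, and their groups overlapped, as did those of Tcf12 and Id1.

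Genes that act with or after the proneural factors were summarised by list. Among 20 genes of the neurogenin programme in the cortex, means were higher in Mir for 13 and lower for 7, around a median log2 fold change of 0.09. The edgeR test called 0 of them over all genes and listed 4 at an unadjusted p under 0.05, and the same 4 were called by DESeq2. Of the 20, 6 are also among the 7 intermediate progenitor markers summed above (Btg2, Dll1, Eomes, Gadd45g, Insm1 and Mfng), so that the higher means of the lists are not separate observations. Those called were Dll1 (a Notch ligand and direct target of the neurogenins; 0.49 ± 0.09), Btg2 (an antiproliferative gene of neurogenic progenitors; 0.75 ± 0.18), Insm1 (a zinc finger factor of intermediate progenitors; 0.55 ± 0.15) and Cdkn1c (a cell cycle inhibitor; -0.65 ± 0.16). Their edgeR adjusted p-values were 0.171, 0.212, 0.223 and 0.212, their DESeq2 ones 0.0014, 0.00575, 0.0233 and 0.0098, and the groups did not overlap for any of them. Of the 3 with higher means, Dll1 was at 95.8, 94.8 and 84.1 CPM in the Mir libraries, against 63.6, 67.7 and 63.9 CPM in the Scr libraries, a narrower spread than that of Neurog2 in the same libraries. Eomes, the transcription factor of intermediate progenitors, and Rnd2, a target of Neurog2 in migrating neurons, were named for these roles after their values had been seen. Eomes was at 479, 524 and 270.4 CPM in the Mir libraries, against 363, 173 and 274 CPM in the Scr libraries, and its highest and lowest libraries were Mir replicate 2 and Scr replicate 2, as for Neurog2 (log2 fold change 0.65 ± 0.31, edgeR adjusted p = 0.388). Rnd2 overlapped widely between the groups, at 0.11 ± 0.17 (edgeR adjusted p = 0.813).

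Among 14 genes that act with the NeuroD factors or Bhlhe22 in neurons, means were higher in Mir for 2 and lower for 12, around a median log2 fold change of -0.33. The edgeR test called 0 of them over all genes and listed 5 at an unadjusted p under 0.05, and DESeq2 called 1, Nfia (adjusted p = 0.0497). Of the 14, 6 are also among the 12 excitatory neuron markers summed above. The median of the list, log2 relative to the Scr mean of each gene, was -0.36, -0.40 and -0.23 in the Mir libraries, against -0.21, 0.20 and -0.02 in the Scr libraries. Scr replicate 2 was thus the highest, as it was for the summed CPM of both the excitatory and the inhibitory neuron markers. The part of cell makeup in this list was not tested. The 4 of smallest p were Nfia (a nuclear factor I gene; -0.39 ± 0.11), Sox5 (-0.35 ± 0.11), Mef2c (-1.24 ± 0.40) and Fezf2 (-0.66 ± 0.22), the last 3 being transcription factors of cortical neurons, with edgeR adjusted p-values of 0.240, 0.246, 0.261 and 0.274. Prdm8, the known partner of Bhlhe22 in repression, was at -0.14 ± 0.10 and Cdh11, a gene the pair represses, at -0.73 ± 0.36 (edgeR adjusted p-values 0.565 and 0.397). Those 2 genes were picked for naming after their values had been seen. Mef2c was at 54.4, 39.2 and 89.8 CPM in the Mir libraries, against 76.3, 209 and 148 CPM in the Scr libraries. It is also expressed in inhibitory neurons and vessels, whose markers had lower means in Mir.

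Proneural proteins are also controlled after translation, by phosphorylation through cyclin-dependent kinases and glycogen synthase kinase, and by ubiquitin ligases. Among 11 genes listed as regulators of proneural protein, means were higher in Mir for 8 and lower for 3, around a median log2 fold change of 0.31. Neither edgeR nor DESeq2 called any of them. The 4 of smallest p were Gsk3a (a form of glycogen synthase kinase; 0.31 ± 0.09), Plk1 (a mitotic kinase; 0.44 ± 0.15), Ccna2 (cyclin A2; 0.42 ± 0.17) and Cdk2 (its kinase; 0.44 ± 0.20), with edgeR adjusted p-values of 0.244, 0.274, 0.320 and 0.354. Plk1, Ccna2 and Cdk2 also belong to the general cell cycle, and the part of dividing cells in these means was not tested. The counts give RNA and not the phosphorylation or stability of the proteins.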

How the data were processed

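Libraries came from RNA of GFP-sorted cortical cells by the SMART-seq v4 kit, with single-end reads, per the labels' protocols. The values are whole-number read counts per Ensembl gene, deposited by the authors without normalization. The submitters' processing notes name the aligner HISAT2 2.1.0, the counter HTSeq 0.11.0, the build mm10 (GRCm38) and DESeq2 1.18.1. The sources used here do not give the strand setting or annotation. The 5 summary lines of each file were left out of library sizes. Of the total over all lines of a file, 28.8 to 31.6% fell in no feature, 39.3 to 44.4% matched several places and 21.9 to 23.6% were assigned to genes. A read that matched several places may stand more than once in that total, so these need not be shares of reads.

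Symbols, coordinates and exon lengths came from GENCODE M21 (GRCm38). Mir was tested against Scr over all 16897 genes left by filterByExpr with edgeR 4.0.16 in R 4.3.3 (quasi-likelihood F test, two-sided, TMM scaling, group as the sole term, Benjamini-Hochberg adjustment, threshold 0.05), after a trial on simulated data. Each log2 fold change is Mir over Scr, with an SE derived from the F statistic. Alternatives were DESeq2 1.42.0 on the same genes, limma-voom (limma 3.58.1), RLE and upper-quartile scaling, no filter or a filter of 50 counts in 3 libraries, the replicate block, and libraries left out. Libraries of a group differed beyond counting noise (chi-square per degree of freedom 7.69 to 25.6, genes of at least 10 reads), and reads without identifiers do not stand for separate molecules. The p-values thus rest on variation among embryo pools. For microRNA matches, 1 transcript per gene with the longest coding sequence was searched, and UTRs under 8 bases were skipped. The members, the lists and the alternative that omits 2 libraries were chosen with earlier results of these data known. The naming rule took all 9 members, every tested gene of a list of 6 or fewer, the 4 of smallest p in a longer list, and the 3 most alike in pattern to Neurog2, Neurod1 and Neurod6. A gene that this rule takes is not reported here.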

Additional observations from a re-analysis of the deposited data

How the results depend on the processing

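No member passed an adjusted p under 0.05 with any of the 14 alternatives run, and 0 of the 9 were called in each. The smallest adjusted p was 0.0933, for Neurog2 with DESeq2. The number of members at an unadjusted p under 0.05 was 2, and it ranged from 0 to 4 when 1 library at a time was left out. It was 3 with DESeq2 and with no filter, each of which added Bhlhe22. Over all genes, edgeR called 0 higher and 1 lower, while counts in the same order were 15 and 16 with no filter, 247 and 333 with DESeq2, 0 and 0 with limma-voom or the block, 10 and 19 without both Scr replicate 2 and Mir replicate 3, 0 and 2 without Mir replicate 3, and 0 and 0 without Mir replicate 1 or 2. Neurog1, Neurog2, Neurod4, Neurod2, Neurod6 and Bhlhe22 kept their direction in all alternatives. The other 3 turned. With 1 library left out, Nhlh1 ran between -0.12 (Scr replicate 2) and 0.43 (Scr replicate 1) and stood at -0.0028 for Mir replicate 1. Neurod1 ran between -0.18 (Scr replicate 2) and 0.22 (Scr replicate 1) and stood at 0.13 for Mir replicate 3. Nhlh2 ran between -0.31 (Mir replicate 2) and 0.061 (Mir replicate 1), stood at 0.052 for Scr replicate 1, and was at 0.01 without both Scr replicate 2 and Mir replicate 3. The cause was not tested. The log2 ratio of Neurog2 to Neurod6 differed by 0.71 and by 0.54 to 0.87 with 1 library left out.

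The labels give both groups the replicate numbers 1 to 3 without saying that a number marks a shared litter or day. The numbers were therefore not taken as pairs in the main fit. Deviations of same-numbered libraries correlated at 0.26, -0.13 and -0.087 for numbers 1, 2 and 3, and not every library correlated best with its own number. With 3 libraries in a group, such correlations cannot show whether the numbers mark pairs. With the replicate block edgeR called 0 members and listed 2 at an unadjusted p under 0.05, Neurog2 and Bhlhe22, and the ratio of Neurog2 to Neurod6 differed by 0.71 (exact sign-flip permutation p = 0.25, the smallest that 3 pairs allow). Depth limits Neurog1 and Nhlh2 most, with at most 343 counts in a library.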

Other observations

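Other bHLH genes of the nervous system were mostly scarce in the sorted cells. Of 16 listed, 6 passed the filter on low counts, with 3 higher and 3 lower means and 0 calls by edgeR over all genes. DESeq2 called 0 of the 4 to which it gave an adjusted p, and gave none to Bhlhe23 and Atoh8. Values of a group are in the order of its replicates 1, 2 and 3. Olig2, a factor of ventral and glial progenitors, was at 13.1, 19.0 and 15.8 CPM in the Mir libraries, against 4.13, 15.49 and 6.56 CPM in the Scr libraries (log2 fold change 0.87 ± 0.45, edgeR adjusted p = 0.414). Its neighbour Olig1 was at 16.0, 16.2 and 5.29 CPM in the Mir libraries, against 0.701, 16.9 and 11.1 CPM in the Scr libraries, so the pair did not keep step in every library.

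Bhlhe23, a close relative of Bhlhe22, was low throughout, at 0.636, 0.639 and 0.746 CPM in the Mir libraries, against 2.26, 2.03 and 1.63 CPM in the Scr libraries. The groups did not overlap, with a log2 fold change of -1.53 ± 0.35 (edgeR adjusted p = 0.206). Bhlhe40 and Atoh8 were at 0.02 ± 0.38 and -0.10 ± 0.69. Atoh1, Ptf1a, Neurog3 and Ferd3l had 0 counts in all 6 libraries, which allows up to 0.189 to 0.204 CPM in a Mir library and 0.180 to 0.236 CPM in a Scr library (3 counts of the total, counting error only). Tal1, a factor of blood and vessel cells, had 0 counts in each Mir library and 6, 4 and 3 counts in Scr replicates 1, 2 and 3.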
